A study of Mus musculus with 6 samples.

Results

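Glutathione is a small peptide of glutamate, cysteine and glycine that cells use as their main soluble thiol. Glutamate-cysteine ligase, made of a catalytic subunit (Gclc) and a modifier subunit (Gclm), makes its precursor, glutathione synthetase (Gss) adds glycine, and glutathione reductase (Gsr) returns the oxidised form to the reduced form with NADPH. Glutathione transferases use it to conjugate or reduce reactive compounds, and NRF2, the transcription factor encoded by Nfe2l2, drives many of these genes through antioxidant response elements. The group described here is 10 genes of synthesis, recycling and transfer, Gclc, Gclm, Gss, Gsr, Gsto1, Gsta3, Gsta4, Gstm1, Gstp1 and Mgst1, found by symbol among 55335 mouse gene identifiers. They were chosen for the falls of Gsto1, Gsta4 and Gclc after mitochondria were given, in this same comparison, so their values are a description and no p-value is given for them.

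RNA was sequenced in 6 libraries labelled as wild-type bEnd.3, a line derived from mouse brain endothelium by means of the polyomavirus middle T oncogene. In 3 libraries the cells had received mitochondria isolated from primary mouse astrocytes, in 3 control libraries culture medium alone, and all were collected at 24 h. The labels do not state whether replicates were separate cultures, so errors measure the spread between these libraries, which may be technical. Levels are in FPKM, fragments scaled to transcript length and library size, and can therefore be compared between genes.

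Several facts of the libraries stand beside every result. The depth estimated from the values was 17100000 to 21200000 fragments for control libraries and higher, 21900000 to 27300000, for mitochondria libraries. These are estimates sought within a fixed range, and not counted reads. Of 14 endothelial markers 6 were at 1 FPKM or more in all libraries. Another 7 were under 1 FPKM in all, among them Pecam1, Tek, Emcn, Erg and Sox17. The defining genes Cdh5 and Cldn5 reached at most 0.07 and 0.13 FPKM, so the labelled cell type was only partly borne out. The endothelial markers summed to 140.4 to 148 FPKM in the controls and 162 to 175 FPKM with mitochondria. Their sum was mostly Cd34 and Eng, at 70.2 and 61.1 FPKM on average, and the groups overlapped in Eng. Cd34 was higher without overlap, by 32.9%, and Flt1 and Kdr were lower without overlap, with differences of −22.8% and −24.0%. The summed level of 12 fibroblast and mural markers was 431 to 465 FPKM in the controls and 382 to 420 FPKM with mitochondria. Col3a1, Col1a1 and Pdgfrb made up most of it, at 225, 111 and 55.8 FPKM on average. Of the 12 markers 2 were lower without overlap. These were Col1a1, at 138 ± 2.45 and 83.9 ± 3.19 FPKM (SD, n = 3), and Col1a2, at 0.33 FPKM or less and not tested. Another 3 were higher, Pdgfra by 22.6%, Acta2 by 33.4% and Des by 33.6%. The 12 astrocyte markers summed to 36.7 to 83.0 and 54.6 to 71.9 FPKM, with Aqp4 and Sox9 at 0 in every library and Gfap at 0.20 FPKM or less. Their sum was mostly Gja1 and Ndrg2, at 11.7 to 45.98 and 14.2 to 36.5 FPKM. Among them 2 were higher without overlap and 0 lower, and neither of the 2 passed the filter for testing. They were Aldh1l1 at 0.391 ± 0.0792 and 1.06 ± 0.0910 FPKM and Slc1a2 at 0.0476 ± 0.0304 and 0.122 ± 0.0471 FPKM (SD, n = 3). The 7 microglial markers summed to 224 to 272 and 182 to 208 FPKM, nearly all of it Tmem119, with P2ry12 and C1qa at 0 in every library. Tmem119 was lower without overlap, at 241 ± 26.6 and 191 ± 14.1 FPKM (SD, n = 3), a difference of −20.8%. The part of depth and of these marker levels in the results was not tested.

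The 10 genes spanned the whole range of expression. Mgst1 was the most abundant, at 262 FPKM on average over the 6 libraries, followed by Gsto1 at 99.9 and Gstm1 at 51.4 FPKM. Gsta4, Gsr and Gclc lay between 20.4 and 38.1 FPKM in every library. Gss averaged 6.31 FPKM, Gclm 2.59 FPKM and Gsta3 0.980 FPKM, and Gstp1 was at or close to 0. The order of 2 neighbours differed between the groups. In the controls every Gsta4 value lay above every Gsr value, and with mitochondria every Gsta4 value lay below every Gsr value.

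**Figure D1:**
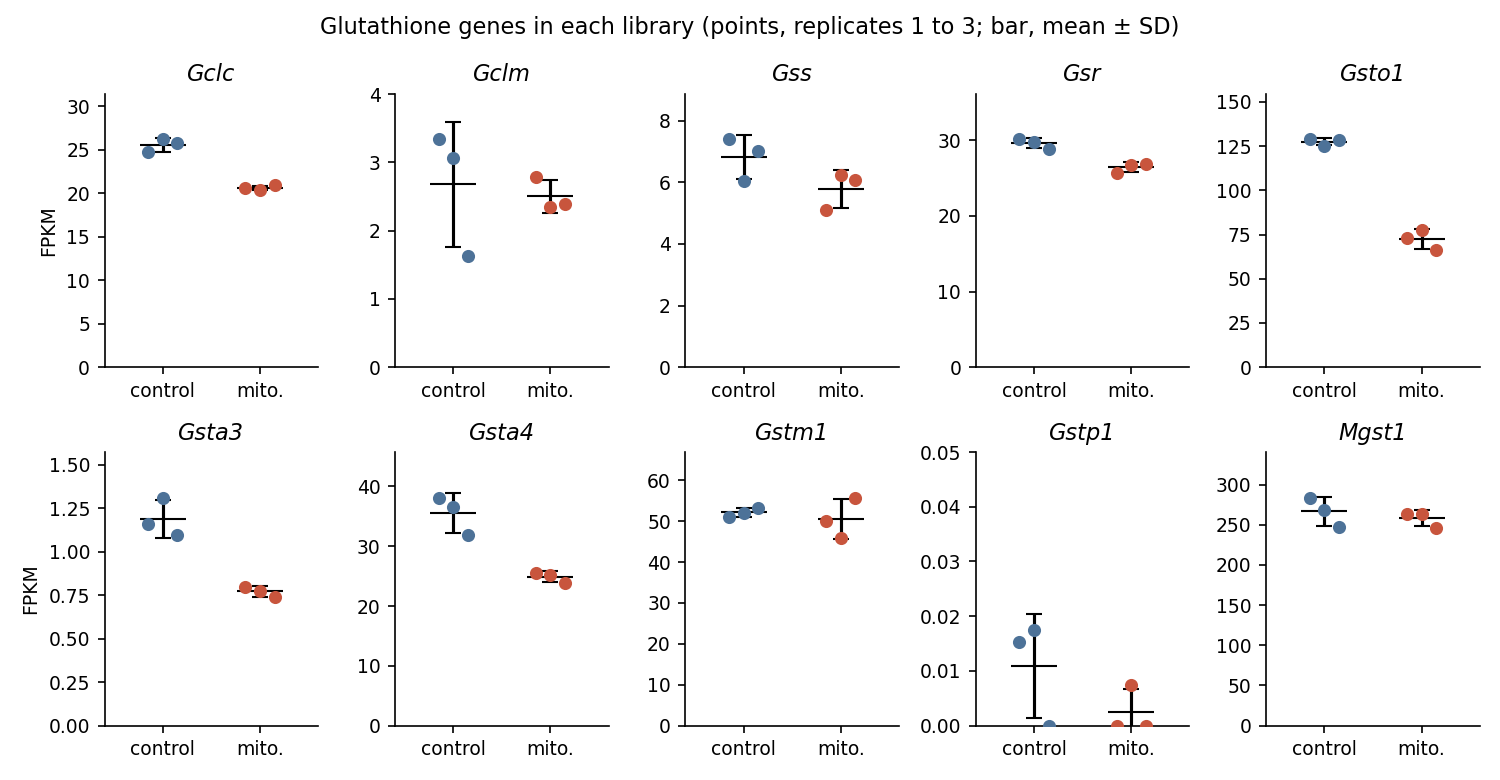
FPKM of each of the 10 genes (vertical axes, linear from 0, a scale for each gene) in the 3 control and 3 mitochondria libraries; points are replicates 1 to 3 from left to right and bars the mean ± SD. The mitochondria points of Gclc, Gsr, Gsto1, Gsta3 and Gsta4 all sit below the control points, those of Gclm, Gss, Gstm1 and Mgst1 overlap them, and Gstp1 lies at 0.02 FPKM or less.

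After 24 h with mitochondria, Gsto1, Gsta4 and Gclc fell, and no member rose. Differences were fitted with limma on log2(FPKM + 1), which understates the change of low genes, over the 12639 genes that reached 1 FPKM in 3 or more libraries. Called genes are those with an adjusted p under 0.05 (Benjamini-Hochberg over all genes tested). Of the 10 genes 9 were tested and 3 were called lower, where 0.649% of all genes tested were called lower, and 0 were called higher, where 0.467% were. The mitochondria libraries lay below all controls without overlap in 5 of the 9 and above them in 0, against 11.4% and 9.62% of all genes tested. Nothing is read from these shares, because the group was chosen on this comparison. Gsta3 entered the test only through its control values. The count of member calls was lower when 1 library was left out: 0 without mitochondria replicate 1, 2 without control replicate 3, and 1 with any other library omitted. It was 1 with the replicate number as a block. Calls over all genes tested also fell, from 141 to between 15 and 84 in the omissions and to 56 with the block.

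Gsto1 had the largest difference of the group. It encodes an omega-class transferase that reduces dehydroascorbate and removes glutathione from protein thiols. Its level was 128.9, 125 and 128 FPKM in control replicates 1 to 3 and 73.1, 77.7 and 66.5 FPKM in mitochondria replicates 1 to 3. The control values lay close together and every mitochondria value lay far below them. The means were 127 ± 2.04 and 72.4 ± 5.65 FPKM (SD, n = 3), a difference of −43.2%, and the log2 difference was −0.81 (SE 0.07, 95% interval −0.97 to −0.65). Gsto1 was called under all 10 other processing settings and in 5 of the 6 fits that left out a library, the exception being the fit without mitochondria replicate 1. No 31-base word of its transcripts occurs in those of another annotated gene, and no other annotated gene overlaps its exons, so its reads have no near-identical copy to be shared with.

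The Gsto1 gene (ENSMUSG00000025068) lies on chromosome 19 from 47854970 to 47864790 on the forward strand of GRCm38. Gsto2, its omega-class paralog, starts 743 bases after its end. Gsto2 was at 4.77, 4.25 and 3.34 FPKM in the controls and 4.68, 5.35 and 4.56 FPKM with mitochondria, overlapping ranges (log2 difference 0.20, SE 0.12, limma adjusted p = 0.503). The ratio of Gsto1 to Gsto2 was 27.0 to 38.4 in the controls and 14.5 to 15.6 with mitochondria. That the adjacent pair differ in their change was not tested. The sequence just upstream of Gsto1 is shown because this gene had the largest difference of the group; it is the forward strand 5′ to 3′ at chr19:47854853-47854962, from 120 to 11 bases before the start site, from RefSeq on GRCm38.p6.
Gsto1: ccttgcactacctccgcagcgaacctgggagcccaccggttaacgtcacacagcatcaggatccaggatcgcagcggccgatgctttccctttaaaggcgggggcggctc

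Gsta4, an alpha-class transferase that conjugates hydroxynonenal, an aldehyde from oxidised lipids, was the other transferase that fell. It was at 38.1, 36.6 and 31.8 FPKM in the controls and 25.6, 25.2 and 23.8 FPKM with mitochondria. Control replicate 3 was the lowest control and still lay above every mitochondria library. The means were 35.5 ± 3.31 and 24.9 ± 0.922 FPKM (SD, n = 3), a difference of −30.0%, with a log2 difference of −0.49 (SE 0.08, 95% interval −0.68 to −0.31). Its call held in 7 of 10 other settings and in 1 of 6 fits without a library, that without control replicate 3, where the log2 difference was −0.57. In the fits that left out any other library it ranged from −0.44 to −0.51, so the size moved little while the call was lost.

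Gsta3, another alpha-class transferase, was near the limit of 1 FPKM. It was at 1.16, 1.31 and 1.10 FPKM in the controls and 0.799, 0.773 and 0.741 FPKM with mitochondria. The groups did not overlap, but the gene was not called, and a gene that passes the filter only where it is high had to differ. The log2 difference was −0.30 (SE 0.08), where the pseudocount of 1 is about as large as the values; with a pseudocount of 0.01 it was −0.61. Of the alpha-class genes near Gsta4 on chromosome 9, Gsta1 was listed at 0 in every library and Gsta2 was at 0.05 to 0.29 FPKM, so Gsta4 accounted for most alpha-class transcripts.

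Gclc, the catalytic subunit that sets the pace of glutathione synthesis, fell by the smallest amount among the called members. It was at 24.7, 26.2 and 25.7 FPKM in the controls and 20.6, 20.4 and 20.9 FPKM with mitochondria. Values within each group were tight and the groups were well apart. The means were 25.5 ± 0.763 and 20.6 ± 0.256 FPKM (SD, n = 3), a difference of −19.3%, and the log2 difference was −0.30 (SE 0.05, 95% interval −0.41 to −0.18). Its call lay near the threshold: it held in 3 of 10 other settings and in 0 of 6 fits without a library, while the log2 difference stayed between −0.32 and −0.28 in all of them.

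The other genes of synthesis and recycling were not called. Gclm, the modifier subunit, was at 3.34, 3.06 and 1.63 FPKM in the controls and 2.78, 2.34 and 2.39 FPKM with mitochondria. Control replicate 3 alone held the lowest value, and the groups overlapped (log2 difference −0.04, SE 0.19, 95% interval −0.49 to 0.41). The sign of the Gclm difference depended on the libraries used, and was −0.26 without control replicate 3 and 0.10 without control replicate 1. Per length, Gclc exceeded Gclm by a ratio of 7.39 to 15.8 in the 6 libraries; it was 15.8 in control replicate 3 and at most 8.74 elsewhere. Gclm shares 5.61% of its 31-base words with other genes, chiefly Ppia and its pseudogenes, of which Gm6061 overlaps its exons at 0.0989 FPKM on average.

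Gss was at 7.40, 6.05 and 7.02 FPKM in the controls and 5.09, 6.23 and 6.07 FPKM with mitochondria. Its groups overlapped through control replicate 2 (log2 difference −0.20, SE 0.10, 95% interval −0.43 to 0.03). Gss shares exonic sequence with Acss2 on the opposite strand, which averaged 2.96 FPKM, and it is not known from the labels whether strand was used in counting. Gsr, the reductase, was at 30.2, 29.8 and 28.8 FPKM in the controls and 25.7, 26.7 and 26.9 FPKM with mitochondria. All mitochondria values of Gsr lay below all control values, by −10.7% on average (log2 difference −0.16, SE 0.05, 95% interval −0.27 to −0.04), and it was not called in the reported fit or under any of the 16 other settings.

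The most abundant member overlapped between the groups. Mgst1, a transferase anchored in the endoplasmic reticulum and the outer mitochondrial membrane, was at 284, 269 and 247 FPKM in the controls and 264, 264 and 246 FPKM with mitochondria. Its log2 difference was −0.05 (SE 0.07), with a 95% interval of −0.21 to 0.12. Gstm1, a mu-class transferase, was at 51.0, 52.1 and 53.3 FPKM in the controls and 50.1, 45.99 and 55.7 FPKM with mitochondria. The mitochondria values of Gstm1 lay on both sides of the controls, and its log2 difference was −0.05 (SE 0.07, 95% interval −0.22 to 0.13). These intervals leave room for changes of that size in either direction.

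The mu-class genes stand side by side on chromosome 3. Of the 31-base words of Gstm1, 28.8% also occur in other genes, so reads could be placed in those. The chief of them was Gstm2-ps1, with 22.6% of the words, followed by Gstm3 and predicted pseudogenes. Gstm3, in the same cluster, averaged 0.0076 FPKM. Gstm2 was at 40.3, 40.02 and 38.3 FPKM in the controls and 39.6, 39.95 and 38.9 FPKM with mitochondria (log2 difference −0.00084, 95% interval −0.11 to 0.11, limma adjusted p = 0.998). In the same cluster Gstm5 and Gstm4 averaged 15.9 and 10.2 FPKM, with overlapping groups. Gstm7 averaged 4.56 FPKM and had a log2 difference of −0.21 (limma adjusted p = 0.246).

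Gstp1, the pi-class transferase, was listed at 0 in control replicate 3 and in mitochondria replicates 1 and 3, and at 0.02, 0.02 and 0.01 FPKM in control replicates 1 and 2 and mitochondria replicate 2. It was not tested. Of its 31-base words 38.5% also occur in Gstp2, so reads could be placed in either gene. Gstp2 reached at most 0.18 FPKM and Gstp3 at most 0.10 FPKM, and the pseudogene Gstp-ps was listed at 0 in every library. The listed values of the pi class were thus all close to 0. How reads that match several genes were handled is not stated, so reads left out of the values cannot be seen here.

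Summed over 26 transferase genes, the level was 846, 817 and 780 FPKM in the controls and 785, 778 and 769 FPKM with mitochondria. Control replicate 3 lay among the mitochondria libraries. Gsto1 made up 15.2%, 15.3% and 16.4% of this sum in the controls and 9.31%, 9.99% and 8.64% with mitochondria. Without Gsto1 the sum was 651 to 717 FPKM in the controls and 700.2 to 712 FPKM with mitochondria, overlapping ranges. The membrane transferases Mgst1 and Mgst3 together made up 49.4% to 52.4% in the controls and 55.0% to 56.3% with mitochondria. As a share of the sum without Gsto1 they made up 59.1% to 61.9% in the controls and 60.2% to 62.1% with mitochondria, and these ranges overlapped.

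**Figure D2:**
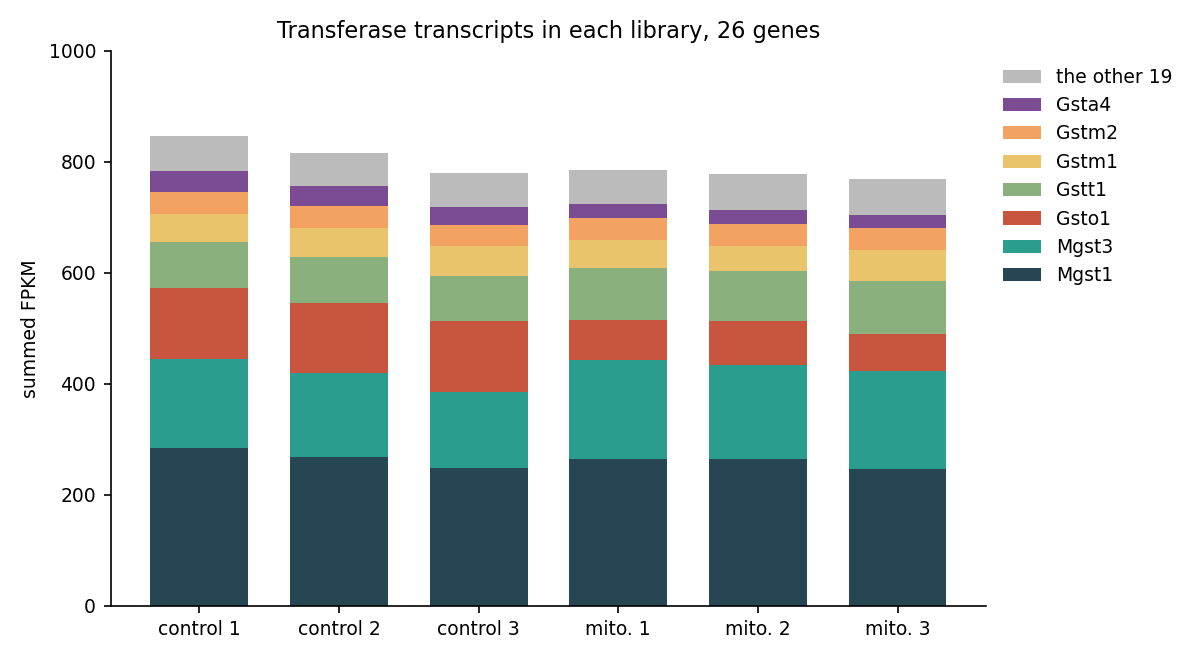
Summed FPKM of 26 glutathione transferase genes (vertical axis, from 0) in each of the 6 libraries, with the 7 most abundant genes in colour and the other 19 in grey. The Gsto1 segment goes from 125 to 128.9 FPKM in the controls to 66.5 to 77.7 FPKM with mitochondria, while the Mgst1 segment is of like height in both groups.

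Gclc and Gsta4 lie on chromosome 9, on the forward strand of GRCm38. Gclc (ENSMUSG00000032350) runs from 77754535 to 77794485 and Gsta4 (ENSMUSG00000032348) from 78182774 to 78209349, 388 kb apart. Of 15 annotated genes between them 6 were tested, and limma called 0 of these 6. Elovl5, a fatty acid elongase and the most abundant of them, was at 129 ± 8.83 and 136 ± 11.5 FPKM (SD, n = 3 in each group; limma adjusted p = 0.757). Nearer to Gsta4, Fbxo9, Ick and Rn7sk were lower with mitochondria without overlap, as were 11.4% of all genes tested. Their log2 differences were −0.32, −0.20 and −0.56, with limma adjusted p-values of 0.102, 0.231 and 0.280. Fbxo9 was at 12.6 and 9.85 FPKM and Ick at 2.89 and 2.40 FPKM (control and mitochondria means). Rn7sk was near the limit of 1 FPKM, at 1.97 ± 0.265 and 1.06 ± 0.530 FPKM (SD, n = 3). Nothing is read from these neighbours as a group. These neighbours were named after their values were seen.

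**Figure D3:**
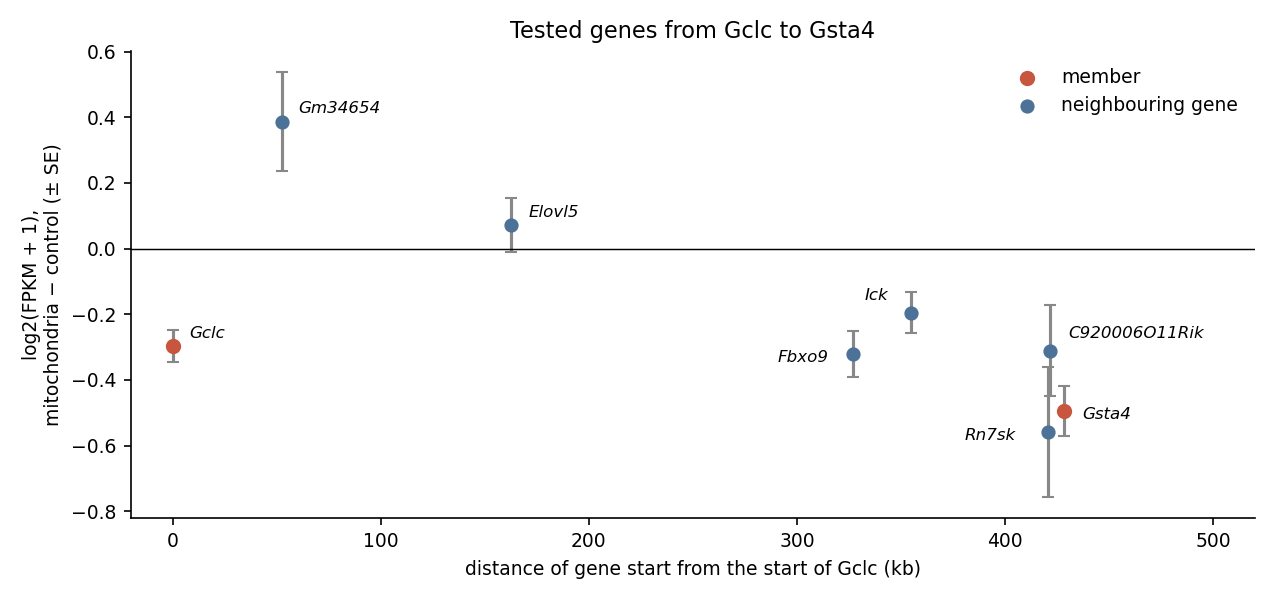
Log2 difference, mitochondria minus control, with its SE (vertical axis) against the distance of the gene's start from the start of Gclc in kilobases, for all 8 tested genes from Gclc to Gsta4. Gclc and Gsta4 are in red; Elovl5 and Gm34654 lie above 0, and the 4 neighbours nearest to Gsta4 lie below 0, none of them called.

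RefSeq promoter windows of 300 bases, 250 before and 50 after a start site, were found for 7 members (Gclm, Gss, Gsto1, Gsta3, Gstm1, Gstp1 and Mgst1), 9 windows in all; Gclc, Gsr and Gsta4 were not matched. They were searched on both strands for TGACNNNGC, the core of the antioxidant response element, which reads GCNNNGTCA on the other strand. Gsta3, Gclm and Mgst1 each held 1 match, and the other 4 searched members held 0. Over all 32851 windows 12.4% held a match, as did 13.99% of all genes in any of their windows, and a match says nothing of binding. In Gsta3 it began 121 bases before the start site on the gene's strand, and in Gclm and Mgst1 at 134 and 56 bases on the opposite strand. The Mgst1 match lies inside an annotated exon of Mgst1, a gene that GENCODE starts at 138140316, upstream of the RefSeq start site. The stretches below, to set beside that of Gsto1, show the matches found in the 7 searched members, in capitals. They are 5′ to 3′ on the gene's own strand, at chr1:21240438-21240498, chr3:122245397-122245457 and chr6:138140462-138140488 (GRCm38.p6, all forward). None of these 3 genes was called, and of the called members only Gsto1 was searched.
Gsta3: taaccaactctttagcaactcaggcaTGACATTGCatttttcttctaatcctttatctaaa
Gclm: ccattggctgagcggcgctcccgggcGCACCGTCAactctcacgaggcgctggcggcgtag
Mgst1: cggggcttgGCACGGTCAggaggcggg

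The rest of the glutathione system was followed in 6 lists, 83 genes in all, of which 81 were matched and 60 tested. None of the 60 was called by limma in either direction, here or under any of the 16 other settings. At an unadjusted p under 0.05 there were 11 lower and 7 higher, where 7.32% and 6.58% of all genes tested were. These shares stand beside the counts of each list below. The lists were chosen with earlier results of these data known, so nothing is read from those counts. The median log2 difference of the 60 was −0.03, and that of all genes tested was −0.01.

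Genes that supply cysteine, glutamate and glycine had the lowest median of the lists, −0.20 over 9 tested genes, with 8 below 0. At an unadjusted p under 0.05, 5 were lower (Slc3a2, Slc1a4, Slc1a5, Cth and Shmt2) and 0 higher, against 7.32% and 6.58% of all genes tested. Slc3a2, the heavy chain of the cystine and other amino acid exchangers, was at 40.4, 35.3 and 37.5 FPKM in the controls and 32.6, 31.4 and 32.6 FPKM with mitochondria, without overlap (log2 difference −0.22, SE 0.06, limma adjusted p = 0.174). Shmt2, which makes glycine in mitochondria, was at 18.3 ± 0.481 and 15.8 ± 0.548 FPKM (SD, n = 3; limma adjusted p = 0.145). Cth, which makes cysteine from cystathionine and is named after its values were seen, was at 9.38, 8.32 and 8.01 FPKM in the controls and 5.68, 6.07 and 4.09 FPKM with mitochondria (log2 difference −0.62, SE 0.13, limma adjusted p = 0.0934). Slc7a11, the light chain of the cystine importer, was under 1 FPKM in every library and not tested. Glul, glutamine synthetase, was at 38.2 ± 1.27 and 36.4 ± 1.28 FPKM (limma adjusted p = 0.624).

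The other transferases had a median of 0.05 over 14 tested genes, with 1 lower and 3 higher at an unadjusted p under 0.05. Mgst3, a membrane transferase, was at 159.8, 151 and 138 FPKM in the controls and 179, 171 and 177 FPKM with mitochondria (log2 difference 0.23, SE 0.07, limma adjusted p = 0.191). Gstt1, a theta-class transferase, was at 82.0, 83.3 and 81.6 FPKM in the controls and 92.4, 90.2 and 96.0 FPKM with mitochondria (log2 difference 0.17, SE 0.05, limma adjusted p = 0.175). In both genes every mitochondria value lay above every control value, the opposite side to Gsto1 and Gsta4, and neither was called. The third gene higher at that p, Gstk1, and Gstm7, the one lower, had limma adjusted p-values of 0.217 and 0.246.

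Transport and breakdown of glutathione had medians of 0.03 and 0.04 over 10 and 9 tested genes. Among transporters 0 were lower and 2 higher at an unadjusted p under 0.05, the exporters Abcc3 and Abcc4, named after their values were seen. Abcc3 was at 3.47, 3.56 and 3.68 FPKM in the controls and 4.76, 4.68 and 5.03 FPKM with mitochondria (log2 difference 0.35, SE 0.06, limma adjusted p = 0.0567), the smallest adjusted p of the 60 genes. Slc25a39, which carries glutathione into mitochondria, was at 40.3 ± 2.10 and 41.9 ± 2.00 FPKM (limma adjusted p = 0.748), and the mitochondrial carriers Slc25a11 and Slc25a10 had limma adjusted p-values of 0.774 and 0.894. In breakdown, Chac1 was the 1 gene lower and Ggt5 and Cndp2 were the 2 higher at that p. Cndp2, a dipeptidase, was at 35.8 ± 1.92 and 39.7 ± 0.547 FPKM, Lap3, an aminopeptidase, at 34.6 ± 3.20 and 30.4 ± 2.22 FPKM, and Chac2, which cleaves glutathione, at 10.6 ± 1.09 and 10.3 ± 0.879 FPKM (SD, n = 3), with limma adjusted p-values of 0.296, 0.407 and 0.902.

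All 8 glutaredoxins and glyoxalases, thiol and aldehyde enzymes that use glutathione, had a difference below 0 and a median of −0.06. The differences ran from −0.24 for Glrx3 to −0.00019 (SE 0.07) for Glo1, which is close to no difference. At an unadjusted p under 0.05 Txndc12 and Glrx3 were lower and 0 were higher. Txndc12 was at 39.6, 35.8 and 35.6 FPKM in the controls and 32.6, 32.0 and 32.9 FPKM with mitochondria (limma adjusted p = 0.227), Glrx3 at 23.3 ± 2.63 and 19.5 ± 0.840 FPKM (limma adjusted p = 0.289) and Esd at 22.02 ± 0.675 and 21.3 ± 1.00 FPKM (limma adjusted p = 0.764).

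NRF2 and its partners had a median of −0.07 over 10 tested genes, with 2 lower (Sqstm1 and Maff) and 0 higher at an unadjusted p under 0.05. Nfe2l2 itself was at 53.8, 50.3 and 48.6 FPKM in the controls and 48.8, 49.3 and 47.8 FPKM with mitochondria (log2 difference −0.06, 95% interval −0.19 to 0.06, limma adjusted p = 0.664). Keap1, which holds NRF2 for degradation, was at 9.23, 12.9 and 12.6 FPKM and at 11.97, 11.2 and 12.1 FPKM, overlapping ranges (limma adjusted p = 0.934). Sqstm1, an autophagy receptor that binds KEAP1, was at 176, 159 and 146 FPKM in the controls and 139.95, 125 and 133 FPKM with mitochondria, without overlap (log2 difference −0.27, SE 0.08, limma adjusted p = 0.215). Nfe2l1 varied widely within both groups, from 27.7 to 104 FPKM and from 26.1 to 91.0 FPKM, and its interval of −1.44 to 1.58 says little.

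**Figure D4:**
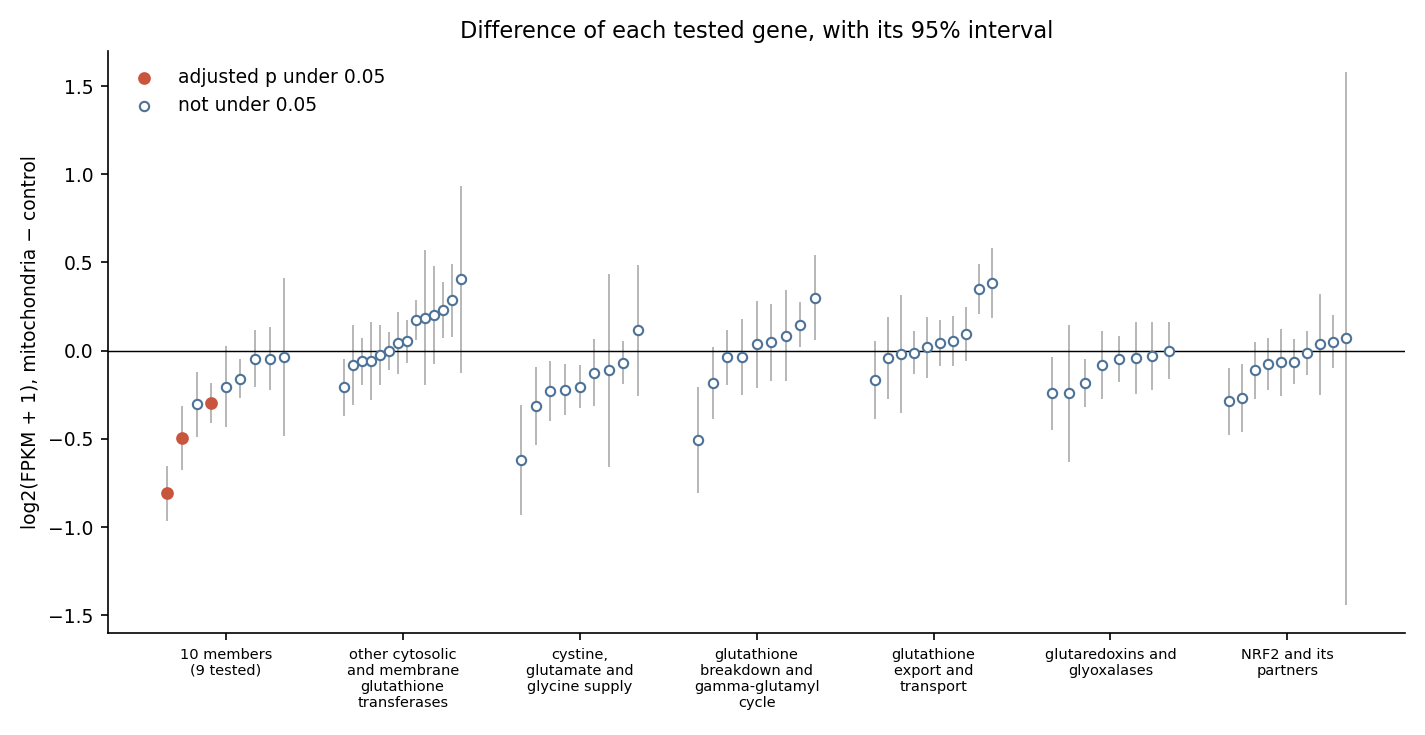
Log2(FPKM + 1) difference, mitochondria minus control (vertical axis), of each tested gene with its 95% interval, by list, for the members and the 6 wider lists; filled points had a limma adjusted p under 0.05. The only filled points are Gsto1, Gsta4 and Gclc; the widest interval, in the NRF2 list, is that of Nfe2l1.

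**Figure D5:**
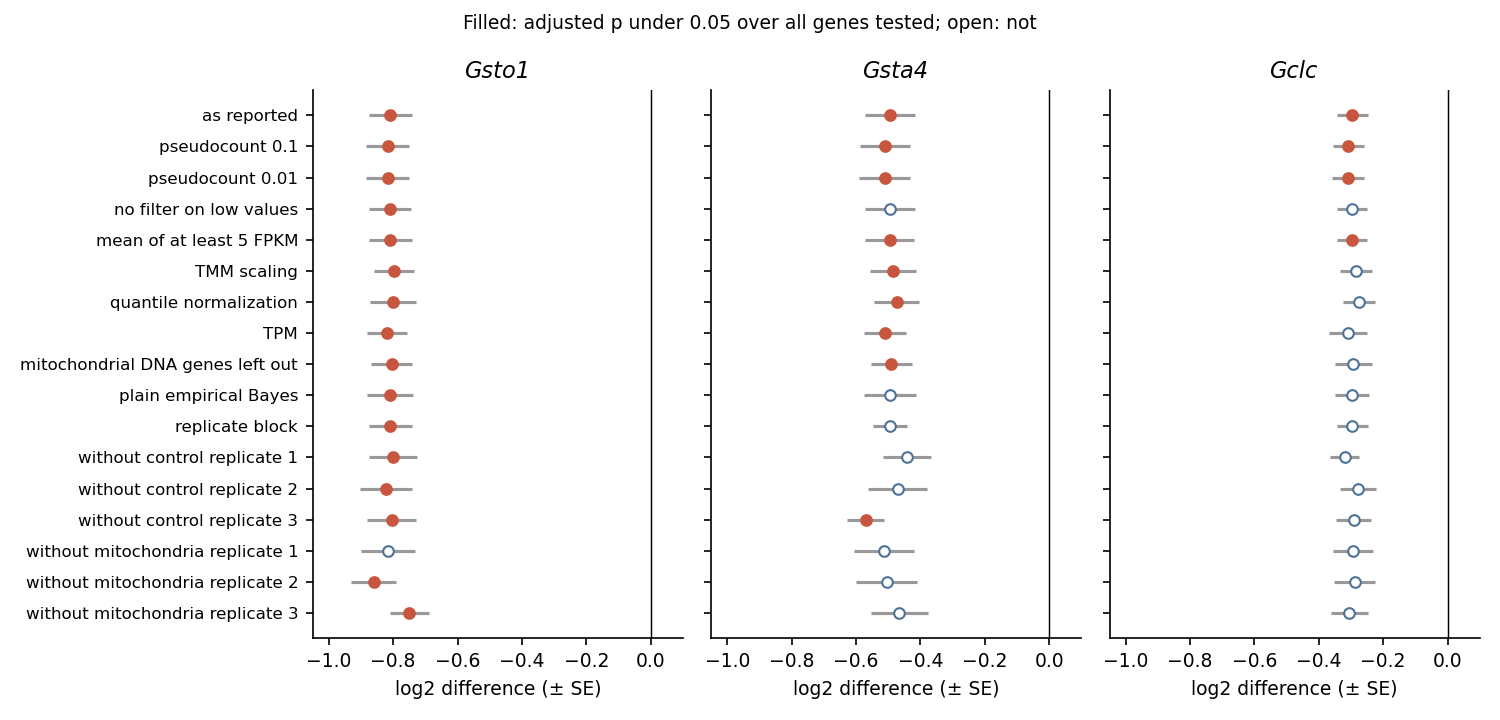
Log2 difference with its SE (horizontal axis) of Gsto1, Gsta4 and Gclc as reported and under 16 other settings (rows); filled points had a limma adjusted p under 0.05. Gsto1 stays between −0.86 and −0.75, Gsta4 between −0.57 and −0.44 and Gclc between −0.32 and −0.28. The number of open points is lowest for Gsto1 and highest for Gclc.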

How the data were processed

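Values deposited by the authors, in a file for each library, were read as FPKM: the headers name no unit, the values are not whole, and the sums of 281433 to 297838 per library are too low for TPM. FastQC 0.11.5, STAR 2.5.3a and StringTie 1.3.1c with GRCm38 (mm10) are named per the submitters' processing notes, without roles or settings. Depth was estimated from value times exonic length in genes with 1 transcript, with the worth of 1 fragment sought only within a fixed range. Of such low values 27.8% to 30.4% fell within 0.02 of a whole number of fragments, so reads were not recovered. Symbols came from GENCODE M21 (55154 of 55335 identifiers matched).

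Computed here: limma 3.58.1 (R 4.3.3) applied to log2(FPKM + 1), group as the only term, empirical Bayes with trend and robust options, tested on simulated data. The alternatives were other pseudocounts, filters and scalings, plain empirical Bayes, a replicate block and omission of each library. The filters changed the number of genes tested, to 29365 with none, 7820 at a mean of 5 FPKM and 12605 without mitochondrial DNA genes. Named genes were all members, called genes and the 3 most abundant tested genes of each wider list, Nfe2l2, Keap1, Slc7a11 and near-identical paralogs. Other genes, among them Slc1a4, Slc1a5, Cth, Gstk1, Chac1, Ggt5, Abcc3, Abcc4, Maff and the markers, were named after their values were seen. Members and lists were chosen with earlier results of these data known.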

Additional observations from a re-analysis of the deposited data

How the results depend on the processing

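The number of members called lower was 3 as reported and 1 with no filter on low values, with plain empirical Bayes and with the replicate number as a block. It was 2 with TMM scaling, with quantile normalization, as TPM and with mitochondrial DNA genes left out, where Gclc was not called. It ranged from 0 to 2 when 1 library was left out. Over all genes tested, 141 were called as reported, 13 with no filter, 56 with the replicate block, and 15 to 84 when 1 library was left out. No member was called higher, and no gene of the wider lists was called, under any of the 16 settings. With 1 library left out, the log2 difference of Gclm ranged from −0.26 to 0.10 and was above 0 without control replicate 1 or 2. That of Gstm1 ranged from −0.12 to 0.020, above 0 without mitochondria replicate 2, and that of Mgst1 from −0.098 to 0.00053, above 0 without control replicate 1. None of these was a call. The fit with no filter tested more genes, and the omissions used fewer libraries. The cause of the lost calls was not tested.

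The labels do not say that equal replicate numbers share a culture or day. Deviations from the group means correlated at 0.10, 0.05 and 0.30 between libraries of the same number. Those of control replicate 3 correlated at −0.20 and −0.13 with mitochondria replicates 1 and 2. Those of mitochondria replicate 3 correlated at −0.18 and −0.15 with control replicates 1 and 2. The remaining pairs of different number were at 0.10 and 0.12. The libraries numbered 3 thus correlated positively only with each other. Whether replicate number marks a shared factor was not tested, and the labels give no pairing, so the reported fit used none. The values are per gene, so a shift between transcripts of different length within a gene was not analysed here.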
